A study of Mus musculus with 9 samples.

Results

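The clustered protocadherins are 3 neighbouring families of cell surface adhesion genes on mouse chromosome 18, named alpha, beta and gamma. Members were chosen by their gene symbol (Pcdha, Pcdhac, Pcdhb, Pcdhga, Pcdhgb or Pcdhgc followed by a number), which matched 53 of the 27207 genes in the table: 10 alpha, 22 beta and 21 gamma genes. Their RNA was measured in whole mouse lungs at E18.5, shortly before birth, in 9 libraries of 3 groups. The wild type group held 3 lungs labelled wild type, with no further alleles named. Both mutant groups carried Tbx4-rtTA, Tet-O-Cre and Dnmt1-D/D; this driver combination is used to delete genes in lung mesenchyme, and other lung cells in the same sample may keep the gene. The 3 lungs of the weak Dnmt1 conditional knockout (CKO) group were hypoplastic, and the 3 of the strong CKO group were hypoplastic with widespread bleeding in the parenchyma.

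Clustered protocadherins are known best from neurons, where a cell switches on its own small choice of members and so gains a surface identity, since each protein binds copies of itself on a neighbouring cell. Every variable exon has its own promoter, and these promoters are reached by distal enhancers through CTCF and cohesin. DNA methylation of a promoter or its variable exon goes with silence of that member in neurons, and Dnmt1 encodes the enzyme that copies methylation onto newly made DNA. In the alpha and gamma clusters the variable exon encodes the extracellular part and is spliced to constant exons common to the cluster, which encode a shared cytoplasmic tail, whereas beta genes have no constant exons. The C-type members of the alpha and gamma clusters (Pcdhac1, Pcdhac2, Pcdhgc3, Pcdhgc4 and Pcdhgc5) are set apart from the alternate members by their promoters and are used more broadly among neurons.

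On GRCm38 the members lay on the plus strand of chromosome 18 between positions 36946105 and 37841873, a span of 896 kb. The alpha members reached from 36946105 to 37187657, the beta members from 37264938 to 37524479 and the gamma members from 37661793 to 37841873. The 10 alpha genes (8 alternate and 2 C-type) ended in the same 2860 bases of annotated exon, and 45.1 to 51.4% of each gene's exon bases belonged to no other member. For the 21 gamma genes (11 A-type, 7 B-type and 3 C-type) that share ran from 33.2 to 72.2%. Beta genes shared exon bases with no other member, except that Pcdhb21 and Pcdhb22 overlapped by 455 bases. Reads in constant exons were not credited to every member of a cluster, because counts summed over the 9 libraries ran from 7 for Pcdha7 to 1500 for Pcdhac2 and from 466 to 13246 among gamma genes. The sources used here do not give how such reads, antisense reads and reads matching several places were counted, so the value of a single alpha or gamma member is less certain than that of a beta member. Of the 75-base stretches of each variable exon (the read length), 37.1 to 100% for beta, 42.3 to 100% for gamma and 68.9 to 100% for alpha occurred in no other annotated gene. The lowest values were those of Pcdhb12, which the antisense gene Gm37446 overlaps, and of Pcdhgc3, which the antisense gene BC037039 overlaps.

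Total counts ran from 25607595 to 33156732 per library, and 19374 genes had enough counts to be tested. Dnmt1 itself was at 79.1, 121.0 and 97.2 CPM (counts scaled to the size of each library) in the wild type libraries, at 59.1, 69.1 and 80.6 in weak CKO, and at 62.0, 78.7 and 65.1 in strong CKO. Wild type and weak CKO overlapped (log2 change -0.51, adjusted p = 0.0727 by edgeR's quasi-likelihood test), and the strong CKO libraries lay below the lowest wild type library, MUT_S_268_4 narrowly (-0.53, adjusted p = 0.0433). The deleted exons are not named in the labels, so this count over the whole gene is a limited check of them. The labels did not say that the lungs came from separate litters, and p-values therefore cover only the spread among these 9 samples. In whole lung, fewer cells of a type and less RNA per cell cannot be told apart.

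In wild type lung the 3 clusters differed in how their RNA was divided among members. To compare members by length, CPM was divided by the kilobases of exon that no other member shares. In the alpha cluster Pcdhac2 stood at 2.64 ± 0.93 CPM per kb (SD, n = 3) and held 83.1% of the cluster's summed level per length. The next, Pcdhac1, was at 0.220 ± 0.097, and the 8 alternate alpha genes lay between 0.00419 (Pcdha7) and 0.104 (Pcdha12). In the gamma cluster Pcdhgc3 was the highest of all 53 members at 16.4 ± 3.14 CPM per kb, followed by Pcdhgb6 at 3.49 ± 0.55 and Pcdhga6 at 2.29 ± 0.37, while the lowest was Pcdhga8 at 0.521 ± 0.19. Pcdhgc3 held 38.5% of the gamma level per length. That share was 27.9% on the deposited RPKM scale, which uses the full gene length, and 51.8% when bases overlapped by any other annotated gene were also left out. The beta cluster was more even: Pcdhb17 at 2.05 ± 0.089 CPM per kb and Pcdhb22 at 1.88 ± 0.15 led it, and Pcdhb17 held 11.3% of its level per length. At the low end were Pcdhb1 at 0.00865 and Pcdhb2 at 0.112 ± 0.073. In the order of wild type levels, neighbours had overlapping libraries in 8 of 9 steps in alpha, 19 of 21 in beta and 18 of 20 in gamma. The steps without overlap were those below Pcdhac2, Pcdhb22, Pcdhb2, Pcdhgc3 and Pcdhgb6.

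**Figure D1:**
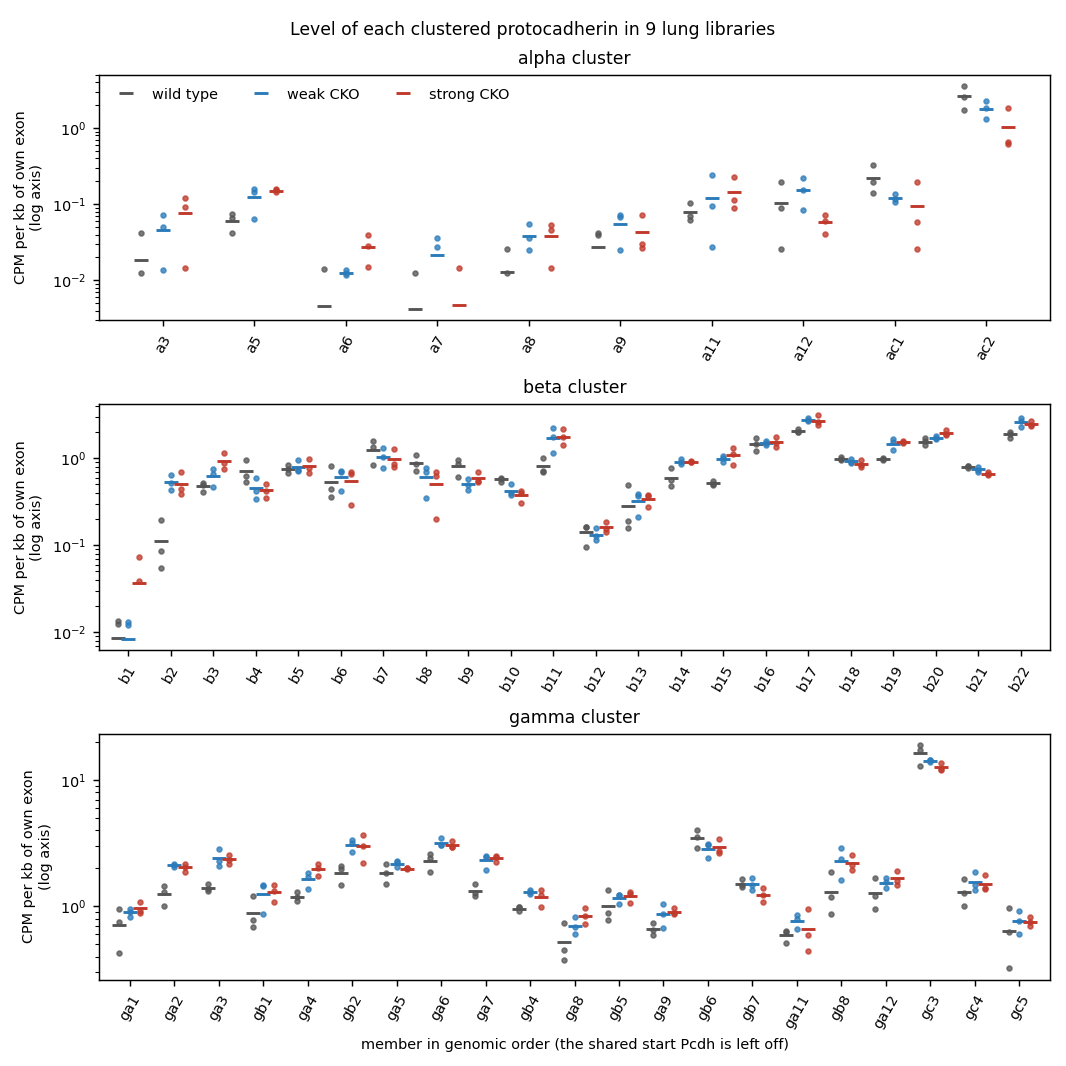
Level of each member in 9 lung libraries, in CPM per kilobase of exon that no other member shares (log axis), in genomic order for the alpha, beta and gamma clusters. Points are single libraries (libraries at 0 cannot be drawn on a log axis) and dashes are group means; Pcdhgc3 and Pcdhac2 stand above the rest of their clusters in each group.

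Of the 53 members, 46 passed the filter on low counts: 4 alpha genes (Pcdha5, Pcdha12, Pcdhac1, Pcdhac2), 21 beta genes (all but Pcdhb1) and 21 gamma genes. The 7 others (Pcdha3, Pcdha6, Pcdha7, Pcdha8, Pcdha9, Pcdha11 and Pcdhb1) had at most 19 counts in any library. On the wild type libraries alone 42 would have passed; Pcdha5, Pcdha12, Pcdhb2 and Pcdhb12 passed through the CKO libraries or through all groups together. In weak CKO, 12 of the 46 tested members rose (adjusted p under 0.05, edgeR's quasi-likelihood test with Benjamini-Hochberg adjustment over all tested genes), where 9.09% of all tested genes rose. None fell, where 5.38% of all tested genes fell, with 2 falls at an unadjusted p under 0.05 and 0 by DESeq2. In strong CKO 13 members rose (14.6% of all tested genes rose). None fell by this main edgeR fit (11% of all tested genes fell), although 4 did at an unadjusted p under 0.05. DESeq2 called 2 falls, Pcdhac2 and Pcdhgc3. With a block on the number in each library name, edgeR called 1, Pcdhgc3. No other library carries the number of MUT_S_860_3, so the blocked strong CKO contrast draws on the other strong CKO libraries only. The members that rose were 7 beta and 5 gamma genes in weak CKO and 8 beta and 5 gamma genes in strong CKO. Both mutant groups were compared with the same wild type libraries, and 11 members were called in both contrasts and 14 in either. The median log2 change over the tested members was 0.30 in weak and 0.30 in strong CKO, where the medians over all tested genes were -0.01 and 0.00.

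**Figure D2:**
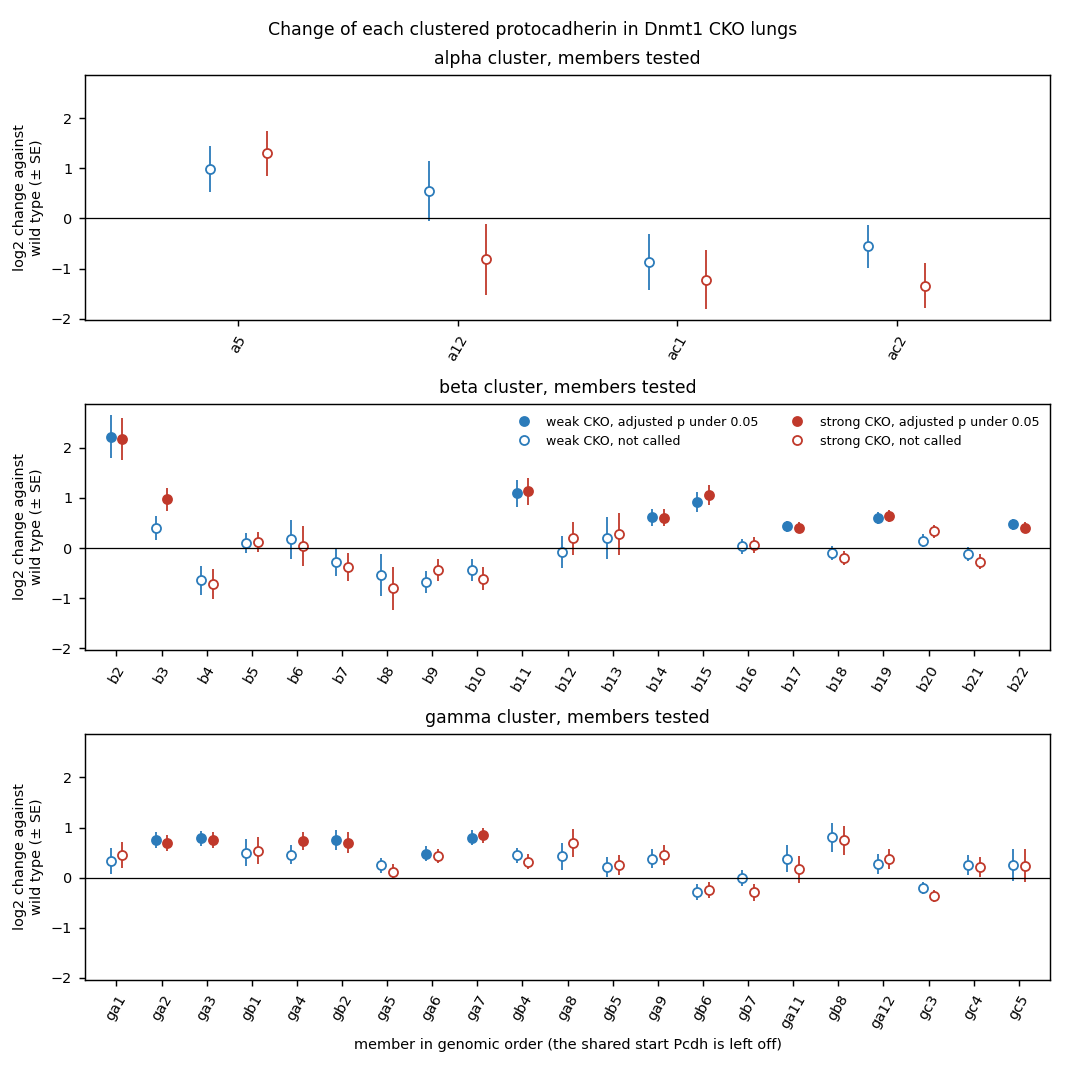
The log2 change against wild type (± SE) of each tested member in genomic order, in weak CKO (blue) and strong CKO (red), with filled points for an adjusted p under 0.05. Called members occur in the beta and gamma clusters, Pcdhga7 being the last called gamma gene in genomic order. The alpha panel, with only 4 tested genes, holds none.

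Pcdhb2 showed the largest fitted rise among the 46 tested members. This beta gene had 5 to 17 counts per wild type library. Its level was 0.244, 0.549 and 0.156 CPM in wild type, 1.80, 1.46 and 1.22 in weak CKO, and 1.09, 1.25 and 1.97 in strong CKO. All 6 mutant libraries were above all 3 wild type libraries, and the rise was 4.68-fold in weak CKO (log2 2.23 ± 0.42 SE, adjusted p = 0.00697) and 4.51-fold in strong CKO (log2 2.17 ± 0.43, adjusted p = 0.00444). Since the wild type level did not pass the count filter by itself, Pcdhb2 entered the test through its mutant libraries.

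Pcdhb11 was at 3.17, 4.42 and 3.08 CPM in wild type, at 7.83, 5.04 and 9.90 in weak CKO, and at 9.56, 7.67 and 6.22 in strong CKO. Wild type did not overlap with either mutant group, and MUT_W_268_3 came closest to it. The log2 change was 1.09 ± 0.26 (adjusted p = 0.0218) in weak and 1.13 ± 0.26 (adjusted p = 0.0109) in strong CKO. Its weak CKO call was lost on log2(RPKM + 1) and without WT_265_1, WT_549_2, MUT_W_265_2 or MUT_W_549_3. Pcdhb15 had close wild type values of 1.40, 1.55 and 1.43 CPM, against 3.00, 2.80 and 2.51 in weak CKO and 2.33, 3.10 and 3.64 in strong CKO. Each mutant library was thus above each wild type library. It rose 1.89-fold in weak CKO (log2 0.92 ± 0.20, adjusted p = 0.014) and 2.07-fold in strong CKO (log2 1.05 ± 0.20, adjusted p = 0.00412). Pcdhb19 was at 6.98, 7.14 and 6.88 CPM in wild type, at 10.9, 11.9 and 8.87 in weak CKO and at 10.7, 11.1 and 10.97 in strong CKO. Here too no library of a mutant group reached down to wild type. The log2 changes were 0.59 ± 0.12 (adjusted p = 0.0102) and 0.65 ± 0.12 (adjusted p = 0.00365). Without MUT_W_268_3 the weak CKO calls of Pcdhb15 and Pcdhb19 were lost, and without MUT_W_265_2 that of Pcdhb15.

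The beta genes with the highest levels per length rose by less. Pcdhb17 was at 10.1, 9.40 and 9.27 CPM in wild type, 13.4, 12.6 and 12.9 in weak CKO, and 11.2, 14.5 and 12.2 in strong CKO. Pcdhb22, the last beta gene, was at 10.6, 11.7 and 12.4 CPM in wild type, 16.3, 17.8 and 14.1 in weak CKO, and 14.5, 16.7 and 14.8 in strong CKO. Neither gene's mutant libraries overlapped wild type. Pcdhb17 rose 1.36-fold and 1.32-fold (adjusted p = 0.0261 and 0.0234 in weak and strong CKO). Pcdhb22 rose 1.39-fold and 1.33-fold (adjusted p = 0.0188 and 0.0221). The weak CKO calls of both were lost without MUT_W_265_2 or without MUT_W_268_3, and the strong CKO calls of both without WT_268_1 or without MUT_S_268_4. That of Pcdhb17 was also lost in either contrast without WT_549_2 and in weak CKO without WT_268_1, and that of Pcdhb22 in strong CKO without WT_265_1. Pcdhb14 rose in both groups, with log2 changes of 0.61 in each. Its weak CKO call was lost under 6 of 16 alternatives, among them without each weak CKO library in turn. Its strong CKO call was lost under 4, all with a library left out. Pcdhb3 rose in strong CKO (0.97 ± 0.23, adjusted p = 0.0124), a call lost without MUT_S_860_3, and its weak CKO value was 0.40 ± 0.24 (adjusted p = 0.30). Pcdhb21, which overlaps Pcdhb22 by 455 bases at its end, had log2 changes of -0.11 and -0.27 (adjusted p = 0.66 and 0.198).

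The other 13 tested beta genes were not called by edgeR in either contrast with all libraries. Some of them lay lower in the mutants. Pcdhb10 was below wild type in all 6 mutant libraries (log2 -0.43 and -0.61, adjusted p = 0.22 and 0.0672), and so was Pcdhb9 in the 3 weak CKO libraries (-0.68, adjusted p = 0.0725). Pcdhb4 and Pcdhb8 had strong CKO changes of -0.72 and -0.80 (adjusted p = 0.0971 and 0.201). By limma on the log2(RPKM + 1) and log2(RPKM + 0.1) scales 1 beta gene, Pcdhb10, fell in strong CKO, and Pcdhb20 (edgeR log2 0.33, adjusted p = 0.077) rose there. The median over the 21 tested beta genes was 0.15 in weak and 0.19 in strong CKO. Beta calls in weak CKO moved with single libraries: 7 fell to 4 without WT_549_2, and to 2 without MUT_W_265_2 or without MUT_W_268_3, and 1 fall (Pcdhb9) was called without WT_268_1. In strong CKO the 8 rises became 5 without WT_268_1 or without MUT_S_268_4.

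In the gamma cluster the calls fell on alternate members. All 11 A-type genes had a positive log2 change in both mutant groups, from 0.25 to 0.79 in weak and from 0.12 to 0.85 in strong CKO, and 4 of 11 were called in each. Pcdhga7 was at 3.98, 4.68 and 3.73 CPM in wild type, 7.66, 7.79 and 6.05 in weak CKO, and 6.89, 7.67 and 7.72 in strong CKO. No mutant library was as low as a wild type library. Its log2 change was 0.79 ± 0.15 in weak CKO (adjusted p = 0.00654) and 0.85 ± 0.15 in strong CKO (adjusted p = 0.00268). Pcdhga3 stood at 3.56, 3.88 and 3.45 CPM in wild type, against 7.39, 6.00 and 5.45 in weak CKO and 5.61, 6.10 and 6.62 in strong CKO. Again the groups did not overlap. The change was 1.73-fold (adjusted p = 0.00754) and 1.68-fold (adjusted p = 0.00536).

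Pcdhga2, the neighbour of Pcdhga3, had 3.73, 3.36 and 2.58 CPM in wild type, 5.25, 5.46 and 5.58 in weak CKO and 5.27, 4.85 and 5.55 in strong CKO. Wild type and mutant libraries did not overlap, and the log2 change was 0.75 ± 0.16 (adjusted p = 0.0119) and 0.70 ± 0.16 (adjusted p = 0.0097). Pcdhga4 was at 1.85, 2.04 and 1.74 CPM in wild type, 2.90, 2.68 and 2.16 in weak CKO, and 3.16, 2.75 and 3.41 in strong CKO. It was called in strong CKO alone (log2 0.73 ± 0.18, adjusted p = 0.015), and that call was lost without MUT_S_860_3. Its weak CKO change was 0.46 ± 0.18 (adjusted p = 0.125), and the direct test of strong against weak CKO gave 0.27 (adjusted p = 0.901). Of the 75-base stretches in the variable exon of Pcdhga4, 62.0% were its own, and the others also occurred in Pcdhgb1. Pcdhga6 was called in weak CKO (0.48, adjusted p = 0.0478) and missed the threshold in strong CKO (0.43, adjusted p = 0.0511), with mutant libraries above wild type in both. The weak CKO call was lost under 11 of 16 alternatives, 8 of them with a library left out, and the strong CKO change was called under 5, DESeq2 among them.

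Among the 7 B-type gamma genes, Pcdhgb2 was the 1 called in each contrast (log2 0.75 and 0.70, adjusted p = 0.0332 and 0.0278). Each of its calls was lost under 5 of 16 alternatives, including log2(RPKM + 1) and without WT_549_2 in both contrasts. Pcdhgb6, the B-type gene with the highest level per length, was at 9.14, 10.3 and 7.47 CPM in wild type, 7.87, 7.96 and 6.24 in weak CKO, and 6.82, 8.74 and 7.02 in strong CKO. Its groups overlapped (log2 -0.28 and -0.25, adjusted p = 0.284 and 0.287). Pcdhgb8 had among the larger gamma changes, 0.81 and 0.74, but varied within groups and was not called by edgeR (adjusted p = 0.0933 and 0.0875). DESeq2 called it in weak CKO, and without WT_268_1, its highest wild type library, edgeR called it in both contrasts. The median over the 21 gamma genes was 0.38 in weak and 0.43 in strong CKO. The 5 gamma rises in weak CKO became 3 without WT_549_2, MUT_W_265_2 or MUT_W_268_3. The 5 in strong CKO ranged from 3 without MUT_S_860_3 to 8 without WT_268_1.

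**Figure D3:**
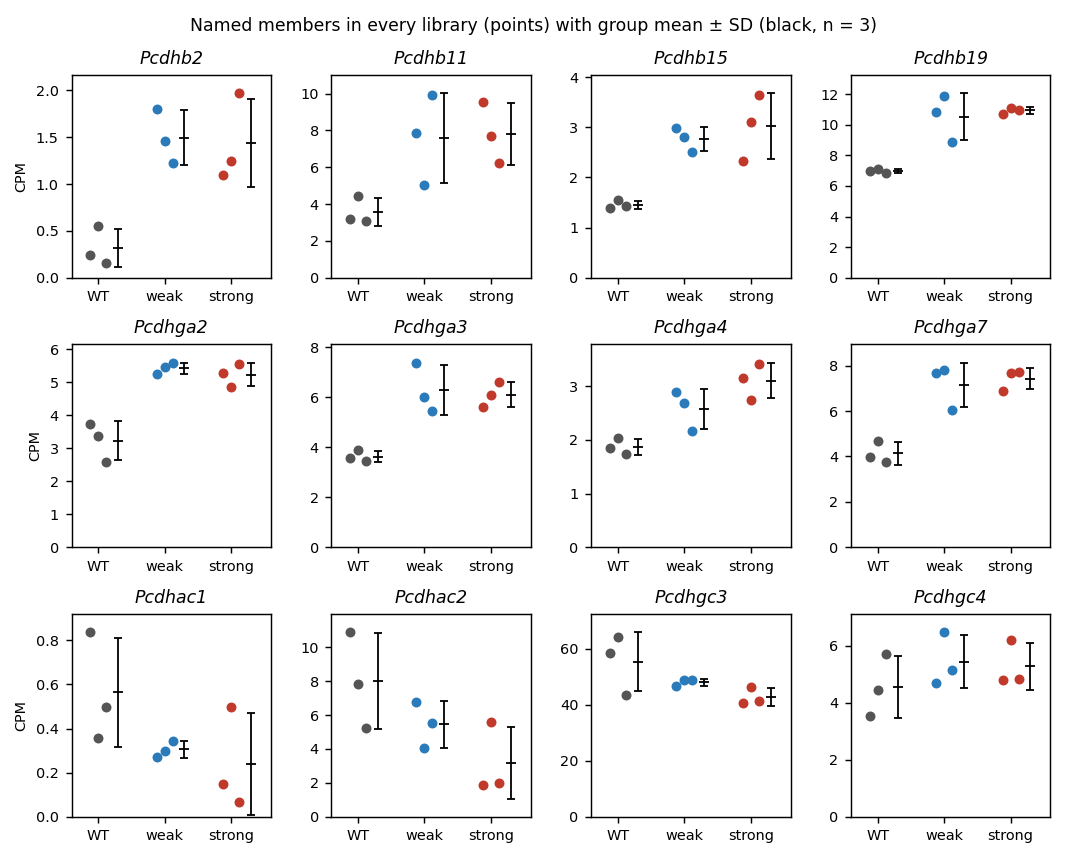
CPM of 12 named members in every library (points, linear axes from 0), with group mean ± SD (n = 3) in black. For the 4 beta genes in the top row and Pcdhga2, Pcdhga3, Pcdhga4 and Pcdhga7 in the middle row all mutant points lie above all wild type points, whereas Pcdhac1, Pcdhac2, Pcdhgc3 and Pcdhgc4 overlap between wild type and at least 1 mutant group.

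Of the 5 C-type members, 0 were called in either contrast by the main edgeR fit. Over all tested genes 9.09% rose and 5.38% fell in weak CKO, and 14.6% rose and 11% fell in strong CKO. With 5 genes, 0 calls do not set the C-type members apart from all tested genes. With a block on the number in each library name, edgeR called Pcdhgc3 lower in strong CKO, without information from MUT_S_860_3. At an unadjusted p under 0.05 the main fit had 0 in weak CKO and 2 in strong CKO, Pcdhac2 and Pcdhgc3, both lower. These are also the 2 that DESeq2 called lower. Pcdhgc3, whose gamma protein is broadly used outside neurons as well, was at 58.4, 64.1 and 43.6 CPM in wild type, 46.7, 48.9 and 48.8 in weak CKO, and 40.6, 46.4 and 41.5 in strong CKO. The low wild type library, WT_549_2, lay within the range of the mutants. The log2 change was -0.20 ± 0.12 (adjusted p = 0.319) in weak CKO. It was -0.37 ± 0.12 (adjusted p = 0.0503) in strong CKO, and without WT_549_2 Pcdhgc3 was called lower in both contrasts, at -0.35 and -0.52. As a share of all gamma CPM, Pcdhgc3 made up 36.3 to 45.8% in wild type, 31.5 to 33.9% in weak CKO and 28.3 to 31.2% in strong CKO. That share did not overlap between wild type and either mutant group. Pcdhgc4 was at 3.52, 4.42 and 5.70 CPM in wild type, 4.70, 6.47 and 5.14 in weak CKO, and 4.78, 6.21 and 4.81 in strong CKO, with overlap throughout (log2 0.26 and 0.21, adjusted p = 0.459 and 0.489). Pcdhgc5 ran widely within wild type alone, at 1.78, 3.46 and 5.35 CPM. It was at 3.30, 5.10 and 4.23 in weak CKO and 3.88, 4.10 and 4.51 in strong CKO. Its log2 changes of 0.25 and 0.23 turned to -0.06 and -0.08 without WT_265_1.

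In the alpha cluster 0 of 4 tested genes were called in either contrast by the main edgeR fit. Over all tested genes 9.09% rose and 5.38% fell in weak CKO, and 14.6% rose and 11% fell in strong CKO. With 4 genes, 0 calls do not set the alpha cluster apart from all tested genes. At an unadjusted p under 0.05 there were 0 alpha genes in weak CKO, and 1 higher (Pcdha5) and 1 lower (Pcdhac2) in strong CKO. DESeq2 called 0 in weak CKO and 1 fall, Pcdhac2, in strong CKO. Pcdhac2 was at 10.9, 7.85 and 5.26 CPM in wild type, 6.78, 4.03 and 5.51 in weak CKO, and 1.84, 5.60 and 2.01 in strong CKO. The strong CKO library MUT_S_268_4 lay within the wild type range while the other 2 lay below it. The log2 change was -0.56 ± 0.43 (adjusted p = 0.447) in weak CKO and -1.34 ± 0.44 (adjusted p = 0.055) in strong CKO. Without MUT_S_268_4 the strong CKO fall was called, at -2.04, as it was by DESeq2, by limma on both RPKM scales and without WT_549_2. Within-group variation of Pcdhac2 was a coefficient of variation of 42.6%, against 8.24% from counting alone, the highest ratio of the tested members. Pcdhac1 was at 0.837, 0.355 and 0.498 CPM in wild type, 0.272, 0.298 and 0.345 in weak CKO, and 0.151, 0.499 and 0.0669 in strong CKO. Its 3 weak CKO libraries lay just below the lowest wild type library (log2 -0.87 ± 0.56 and -1.22 ± 0.59, adjusted p = 0.341 and 0.149). Without MUT_S_268_4, its highest strong CKO library, the strong CKO change was -2.34 and was called lower (adjusted p = 0.018).

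The alternate alpha genes were near the limit of detection, and the shared exon ends keep their counts uncertain. Pcdha5 had 3 to 5 counts in wild type libraries, 5 to 12 in weak CKO and 9 to 11 in strong CKO, with log2 changes of 0.99 and 1.30 (adjusted p = 0.18 and 0.0564). Its strong CKO rise was called when only the groups compared were fitted, by limma on log2(RPKM + 0.1) and without MUT_W_268_3. Pcdha12 went 0.55 and -0.81 (adjusted p = 0.591 and 0.42). For Pcdha8 the 3 wild type libraries held 3 counts together and the strong CKO libraries 8, a ratio of 2.90 with a 95% interval from counting alone of 0.695 to 16.9. Pcdhb1, the first beta gene, had 2 counts in wild type and 8 in strong CKO, a ratio of 4.34 (0.867 to 42.0). No difference was detectable at this depth for those. Summed over the 8 alternate alpha genes, the level was 0.762 ± 0.28 CPM (SD, n = 3) in wild type, 1.40 ± 0.23 in weak CKO and 1.33 ± 0.27 in strong CKO. The sums did not overlap, with wild type libraries at 1.08, 0.581 and 0.622 CPM and mutant libraries from 1.16 to 1.64. They rest on 18 to 31 counts per wild type library, 39 to 52 in weak CKO and 31 to 49 in strong CKO. The gap from 1.08 to 1.16 CPM is thus small beside counting noise.

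Sums over whole clusters set the 3 families side by side. They were described without a test, because the members were chosen with earlier results known. Summed beta CPM was 82.8, 86.0 and 78.3 in wild type, 102.4, 98.5 and 100.3 in weak CKO, and 97.9, 109.7 and 96.0 in strong CKO. Every mutant library exceeded every wild type library, and the ratio of means was 1.22 in weak and 1.23 in strong CKO. The called genes are part of this sum, so it is not separate from their calls. Of the 21 tested beta genes, 13 had a positive and 8 a negative log2 change in weak CKO, and 14 and 7 in strong CKO. Summed gamma CPM was 131.9 ± 14.7 in wild type, 148.7 ± 5.04 in weak CKO and 142.6 ± 9.07 in strong CKO, with overlap. Within gamma, the A-type sum was 36.8 ± 2.72 in wild type and 52.1 ± 2.33 and 52.7 ± 2.59 in the mutants, ratios of 1.41 and 1.43 with no overlap. The B-type sum overlapped at ratios of 1.23 and 1.19, and the C-type sum overlapped at ratios of 0.911 and 0.824. Without Pcdhgc3 the gamma sum was 1.31 and 1.30 times wild type, with no overlap, against 1.13 and 1.08 with it. Pcdhgc3 is the largest gamma member and its own log2 changes were negative, so leaving it out raises the ratio. The alpha sum, mostly Pcdhac2, went from 9.32 ± 3.25 to 7.14 ± 1.51 in weak and 4.72 ± 2.23 in strong CKO, with overlap. On the share of CPM within each cluster, Pcdhac2 made up 82.4 to 89.3% of alpha in wild type, 73.4 to 80.2% in weak CKO and 54.1 to 77.0% in strong CKO.

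**Figure D4:**
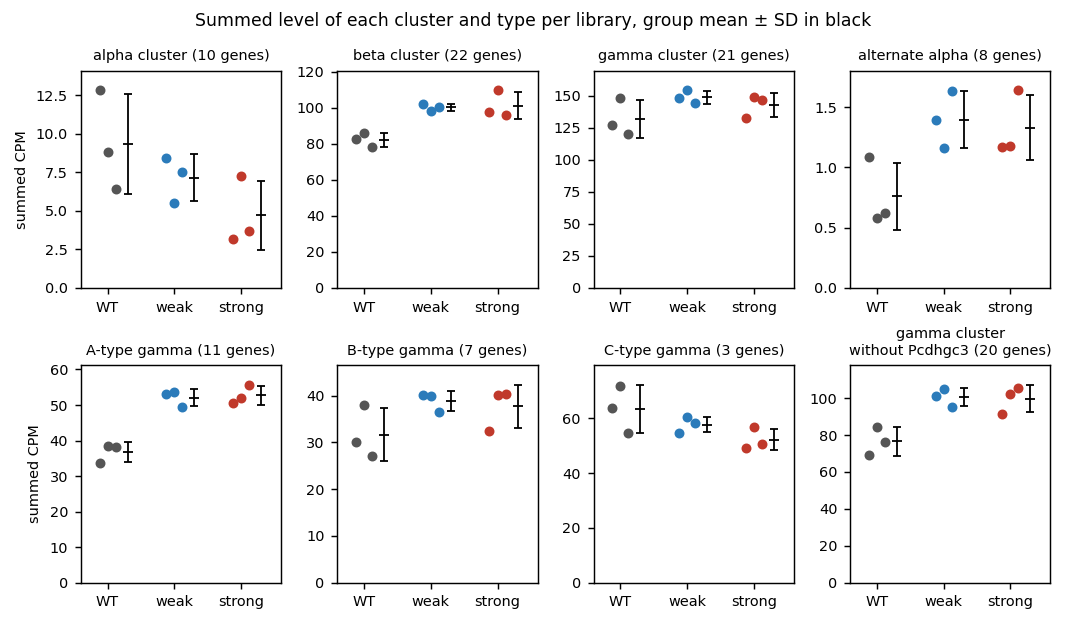
Summed CPM per library (points) for each cluster and for types within alpha and gamma, with group mean ± SD (n = 3) in black and axes from 0. The beta, A-type gamma and alternate alpha sums, and gamma without Pcdhgc3, are higher in all 6 mutant libraries than in all 3 wild type libraries. Pcdhgc3, left out of that last sum, had negative log2 changes, and the full gamma sum overlaps. The alternate alpha sum holds only 18 to 52 counts per library.

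Strong and weak CKO were compared directly, which asks whether the members differ between the lungs with and without bleeding. By edgeR 0 of 46 members rose (0% of all tested genes did) and 0 fell (0.00516% of all tested genes did). At an unadjusted p under 0.05, 1 member was higher (Pcdhb3, log2 0.57) and 0 were lower, and DESeq2 called 0. The median difference was -0.04 over the members and 0.01 over all tested genes. Pcdhac2 had a difference of -0.79 (adjusted p = 0.882). A missed threshold with 3 libraries a group does not show that the mutant groups were alike.

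Position along the chromosome and sequence content were examined after the calls had been seen, and so are given as description only. In the gamma cluster the first 9 genes in genomic order ran from Pcdhga1 to Pcdhga7, with Pcdhgb1 and Pcdhgb2. The main edgeR fit called 6 of them in at least 1 contrast, and 0 of the later 12. The cut lies right after Pcdhga7, the last called gamma gene, so that 0 follows from where the cut was placed. Of the later 12, DESeq2 called a rise of Pcdhgb8 in weak CKO. Without WT_268_1 edgeR called rises of Pcdhgb5 and Pcdhgb8, and without WT_549_2 of Pcdhga8 and Pcdhga12. Pcdhgc3, also a later gene, was called lower in strong CKO by DESeq2 and with the block, and in both contrasts without WT_549_2. The median log2 changes of the first 9 and later 12, which share that cut, were 0.50 and 0.26 in weak CKO. In strong CKO they were 0.70 and 0.24. In the beta cluster 3 of 10 tested among the first 11 genes and 5 of the later 11 were called. CpG dinucleotides, the sites that Dnmt1 keeps methylated, were counted in the first 1000 bases of each variable exon. The 8 called beta genes held 18 to 24 (median 21.5) and the 13 not called held 8 to 21 (median 15). GC content was similar, with medians of 47.0 and 47.2%. The called beta genes also had a higher median wild type level, 4.39 against 2.65 CPM, with overlapping ranges. Their median length of own exon was greater as well, 4540 against 3559 bases. Across the 21 tested beta genes CpG count and log2 change had a Spearman rho of 0.72 in weak and 0.73 in strong CKO. In the gamma cluster the called genes held 37 to 47 CpG (median 39.5) and the others 24 to 79 (median 45), with a rho of -0.39 and -0.42 across 21 genes. These genes share libraries, a chromosome and related sequence, so they are not independent points. Pcdhb1 held 42 CpG, the most of the beta genes, and was too low to test. Methylation itself was not measured in these libraries.

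**Figure D5:**
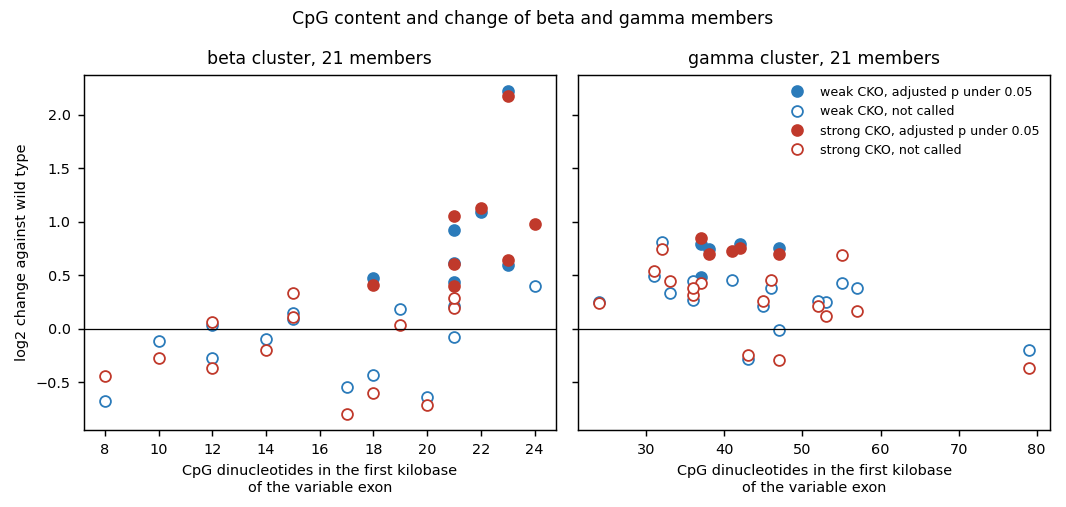
CpG count in the first kilobase of the variable exon (horizontal) against log2 change from wild type (vertical) for 21 beta and 21 gamma genes, in weak CKO (blue) and strong CKO (red), filled where the adjusted p was under 0.05. Called beta genes hold 18 to 24 CpG, and in the gamma panel the called genes lie between 37 and 47.

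Genes around the clusters gave a local comparison. Of 47 other genes within 500 kb of or between the members, 34 were tested, with medians of -0.03 in weak and -0.05 in strong CKO. In weak CKO 4 rose (Pfdn1, E230025N22Rik, 3222401L13Rik and BC037039) and 4 fell (Hbegf, Arap3, Dele1 and Rnf14). In strong CKO 5 rose (Dnd1 and Hars with the first 3 of these) and 7 fell. Of all tested genes 9.09% rose and 5.38% fell in weak CKO, and 14.6% rose and 11% fell in strong CKO. The most changed of the 34 was the lincRNA 3222401L13Rik, on the same strand from 37655451 to 37661742. It ends just before the annotated start of Pcdhga1 at 37661793. It was at 3.25, 2.49 and 2.02 CPM in wild type, 9.23, 9.52 and 6.42 in weak CKO, and 8.81, 7.21 and 8.56 in strong CKO, without overlap. The log2 change was 1.70 ± 0.21 (adjusted p = 0.000584) and 1.67 ± 0.21 (adjusted p = 0.000427). Taf7 and Diaph1, protein-coding genes on the minus strand before and after the gamma cluster, had log2 changes of 0.24 and -0.02 in weak CKO (adjusted p = 0.226 and 0.89). Hbegf, a growth factor gene, fell (-0.77 in both groups, adjusted p = 0.0141 and 0.00816), as did Arap3, a regulator of small GTPases (-0.56 and -0.81, adjusted p = 0.00887 and 0.000696). BC037039, antisense to Pcdhgc3, rose in weak CKO (0.72, adjusted p = 0.0256), and its strong CKO value was 0.53 (adjusted p = 0.055). Without knowledge of strand in the counting, its reads and those of Pcdhgc3 cannot be told apart.

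Of 18 genes for factors that act on clustered protocadherin promoters (CTCF, cohesin and its loaders, Smchd1, and DNA methylation and heterochromatin proteins), edgeR called 0 in weak CKO, where 1 was lower at an unadjusted p under 0.05 and DESeq2 called 1 fall. In strong CKO 2 fell by edgeR, Dnmt1 and the cohesin subunit gene Stag2 (-0.38, adjusted p = 0.0248), and 5 by DESeq2. For this list and the next ones, 9.09% of all tested genes rose and 5.38% fell in weak CKO. The shares in strong CKO were 14.6% and 11%. The list's medians were -0.07 and -0.09. Ctcf itself had log2 changes of -0.08 and -0.07 (adjusted p = 0.478 and 0.457). Among 11 tested non-clustered protocadherins, related adhesion genes outside the clusters, 2 rose (Pcdh7 and Pcdh10) and 2 fell (Pcdh18 and Pcdh20) in weak CKO. In strong CKO 3 rose (with Pcdh11x) and 6 fell (with Pcdh1, Pcdh12, Pcdh15 and Pcdh17). Pcdh20 fell by 2.08 and 2.59 on the log2 scale (adjusted p = 0.000234 and 5.25e-05), and Pcdh7 rose by 0.82 and 1.19 (adjusted p = 0.0151 and 0.00128). Their medians were -0.41 and -0.64. Of 19 genes for proteins reported to bind or process clustered protocadherins, 1 rose (Wasf1) and 2 fell in weak CKO. In strong CKO 2 rose (Wasf1 and Ret) and 5 fell, among them Ptk2 and Marcks. Wasf1, of the WAVE complex that binds protocadherin tails, rose by 0.75 and 1.03 (adjusted p = 0.012 and 0.00132). Ret, a receptor kinase, rose in strong CKO (0.63, adjusted p = 0.0405), with 0.66 in weak CKO (adjusted p = 0.0507). Adam10, whose protease cuts protocadherins, had log2 changes of -0.08 and -0.10 (adjusted p = 0.481 and 0.269).

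Markers of neural and neuroendocrine cells moved in the same samples, where 9.09% of all tested genes rose in weak CKO and 14.6% in strong CKO. Of 8 tested neuron markers 3 rose in weak CKO and 4 in strong CKO, among them Prph (2.34 and 3.39), Tubb3 (2.28 and 2.91) and Nefm (1.03 and 1.46), while Stmn2 had values of -0.33 and -0.51 and was not called. The summed level of all 12 listed neuron markers was 18.8 to 24.4 CPM in wild type, 19.7 to 25.4 in weak and 19.9 to 26.6 in strong CKO, most of it Stmn2. Of 9 Schwann cell markers 3 rose in weak and 6 in strong CKO, including Sox10 (2.03 and 2.06). Their sum went from 158.2 to 173.9 CPM in wild type to 203.2 to 216.1 and 197.8 to 212.8, with Cdh19 rising from 0.230 to 31.4 and 33.5 CPM. Of 8 neuroendocrine markers 6 and 7 rose, including Chgb (1.11 and 1.15), with a sum of 6.75 to 9.46 CPM in wild type, 12.0 to 16.9 in weak and 15.6 to 18.9 in strong CKO. None of these listed markers was at 0 in every library. Their part in the protocadherin rises was not tested.

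Of 8 mesenchyme markers 1 rose in each contrast (Col1a2), and 5 fell in weak and 6 in strong CKO. Tbx4, the gene for which the driver is named, fell by 0.69 and 0.96 on the log2 scale. Over all tested genes 5.38% fell in weak CKO and 11% in strong CKO. Of 6 epithelial markers 2 and 4 fell, and of 5 endothelial markers 2 and 5 fell, with an endothelial sum of 1817 to 2368 CPM in wild type, 1622 to 1661 in weak and 1208 to 1518 in strong CKO. Of 7 erythroid genes 0 were called in either contrast by edgeR or DESeq2, and at an unadjusted p under 0.05 there was 1 lower in weak CKO and 2 higher in strong CKO. They had a sum of 3948 to 7398 CPM in wild type, 3777 to 4393 in weak CKO and 6763 to 12690 in strong CKO. The part of these shifts in the members' values was not tested.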

How the data were processed

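RNA of 9 whole lungs was read as single 75-nt reads per the labels' protocols, with 50 M reads stated per sample. The table deposited by the authors held whole-number counts per gene and library, RPKM values per the file headers, and a gene length. For 96.4% of the identifiers found, the deposited length was the exon length summed over all annotated transcripts plus 1 per exon, so RPKM understates genes with several transcripts. Per the submitters' processing notes, the authors used STAR with GRCm38.p6, edgeR 3.28.1, Trimmomatic 0.36, cutadapt 2.5 and FastQC 0.11.8. The sources used here do not name a counting tool. Every sample column was mapped to a library.

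Counts were tested with edgeR 4.0.16 in R 4.3.3: TMM factors (0.938 to 1.04), filterByExpr by group, 1 mean per group over all 9 libraries, robust quasi-likelihood fit, two-sided F tests, and Benjamini-Hochberg adjustment over 19374 genes with a threshold of 0.05. SEs were derived from the change and its F statistic. The code was tested on simulated data. Alternatives were DESeq2 1.42.0, no filter, upper quartile factors, a replicate block, only the groups compared, limma 3.58.1 on log2(RPKM + 1) and log2(RPKM + 0.1), and leaving out each library. With 3 libraries a group, a permutation test cannot give p below 0.1, so none was used.

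Exons came from the GENCODE annotation of GRCm38, and CpG and 75-base stretches from its transcripts. Members, lists and tests were chosen with earlier results of these data known. Values per library are given for the C-type members, for the 4 called members with the smallest adjusted p in each cluster, and for the 2 with the highest wild type level per kilobase in each cluster; other genes named were picked after their values were seen. Several loci of these clusters were not analysed here (Pcdha1, Pcdha2, Pcdha4 and Pcdhga10 among them). A few genes of the lists are counted in them but not reported here by name.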

Additional observations from a re-analysis of the deposited data

How the results depend on the processing

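Each count of called members was recomputed under 16 alternatives. The rises of Pcdhb2, Pcdhga2, Pcdhga3 and Pcdhga7 were called in both contrasts under all 16. With single libraries left out, beta rises in weak CKO ran from 2 to 7 and falls from 0 to 1, and gamma rises from 3 to 6 and falls from 0 to 1. In strong CKO, beta rises then ran from 5 to 8, gamma rises from 3 to 8 and gamma falls from 0 to 1, and alpha rises from 0 to 1 and falls from 0 to 2. The cause was not tested; each such fit has fewer libraries. Only the groups compared and log2(RPKM + 0.1) each gave 1 alpha rise in strong CKO. DESeq2, log2(RPKM + 1) and log2(RPKM + 0.1) each gave 1 alpha fall there, both RPKM scales 1 beta fall, and DESeq2 1 gamma fall. Pcdhgc5 changed sign without WT_265_1, with leave-one-out ranges of -0.06 to 0.68 in weak and -0.08 to 0.67 in strong CKO. The wild type share of gamma level held by Pcdhgc3 moved from 38.5% to 27.9% with the deposited gene length and to 51.8% with exon no other annotated gene shares, a choice made after seeing the data; both follow from the length used.

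Same-numbered libraries did not deviate together throughout (correlations from -0.0869 to 0.346), so the numbers were not taken to pair the samples: 4 of 7 same-numbered and 1 of 20 other pairs were over 0.1, and 6 of 8 libraries correlated best with their own number, a hint from the data alone. With a replicate block, gamma rises in strong CKO were 3 in place of 5 (Pcdhga4 and Pcdhgb2 lost). Gamma falls were 1 (Pcdhgc3) in place of 0. A strong CKO library whose number no other library carries adds nothing to strong CKO against wild type under the block. Leaving that library out without a block also gave 3 gamma rises, with Pcdhga4 and Pcdhgb2 lost. Those losses therefore cannot be credited to the block itself. The block also lost the calls of Pcdhb17 in strong and Pcdhga6 in weak CKO. The other counts stayed within 1.5 times.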
